A study of Mus musculus with 32 samples.

Results

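The 9 genes described here encode the enzymes that write, copy and remove cytosine methylation in mouse cells, with the repressor *Prdm14*. They are the maintenance methyltransferase *Dnmt1* and its recruiter *Uhrf1*, the de novo genes *Dnmt3a*, *Dnmt3b* and *Dnmt3l*, the dioxygenase genes *Tet1*, *Tet2* and *Tet3*, and *Prdm14*. They were taken by name from a gene count table of 51826 genes, and all 9 passed the low-count filter that left 18892 genes for testing. Their transcripts were followed through 32 RNA-seq libraries of mouse embryonic stem cells in 11 conditions, to ask how this machinery changes as cells leave naive pluripotency and in cells that lack the transcription factors ETV5, RBPJ and TCF3.

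DNMT1 copies methylation onto the newly made DNA strand after replication, and UHRF1 brings it to hemimethylated CpG sites. DNMT3A and DNMT3B place new methyl groups, and DNMT3L has no catalytic activity of its own but binds both of them and stimulates them. TET enzymes oxidize 5-methylcytosine, which leads to its loss. PRDM14 represses de novo methyltransferase genes in naive cells, and naive cells in 2i are known for low global methylation, which rises when the cells move toward the formative state. Only transcript levels were measured here, and neither protein nor methylation.

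All lines derive from RGd2, an embryonic stem cell line with a destabilized GFP reporter at the *Rex1* locus. 2i is a medium with the MEK inhibitor PD0325901 and the GSK3 inhibitor CHIR99021, CH is CHIR99021 alone, and N denotes N2B27, the basal medium without inhibitors. The first experiment compared RGd2, Rbpj-KO and Etv5-KO cells in 2i and after 16 h in N2B27 (N16h), 3 libraries per condition except Etv5-KO N16h with 2. These counts follow the labels; the methods text instead places the loss of a library in the RGd2 N16h group. Cells of the first experiment were expanded in CH with LIF and moved to 2i shortly before sampling or withdrawal, whereas 2i-p5 cells had been passaged in 2i. The second held RGd2 at passage 5 in 2i (2i-p5), at passage 2 in CH (CH-p2) and after 72 h in N2B27 (N72h), together with self-renewing lines that lack *Etv5* and *Rbpj* in CH at passage 5 (ER-dKO CH-p5) or *Etv5*, *Tcf3* and *Rbpj* in N2B27 at passage 5 (ETR-tKO N-p5), 3 libraries each. The labels name no experiment or batch, so this split into a first and a second experiment is inferred. Mutant libraries came from CRISPR clones, 3 per genotype, made with a pair of guide RNAs in different exons. By their names, ETR-tKO replicates 14 and 15 descend from the same *Tcf3* knockout clone and are not separate for that deletion. RGd2 was represented in every condition by 1 library of a clonal line and 2 of the parental line. Each mutant genotype is thus represented by clones. The p-values come from 1 model of all 32 libraries. They therefore rest on the spread among clones and cultures pooled over the 11 conditions, not only over those compared.

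Levels are given as FPKM, which scales each library to its own gene total and each gene to its exon length. Fold changes were scaled to the ERCC spike-in RNAs, so they refer to the amount of RNA relative to spike-in, and "called" means that the adjusted p was under 0.05 and a group compared averaged 1 FPKM or more (edgeR's quasi-likelihood test, Benjamini-Hochberg adjustment over all genes tested). In these bulk samples, fewer cells of a type and less RNA per cell cannot be told apart. Libraries held 5986857 to 71439411 gene counts, the lowest being RGd2 2i replicate 33, and spike-ins made up 0.991% to 1.52% of the counts. Among the RGd2 2i libraries the spike-in share was 0.991%, 1.19% and 1.39%. The log2 fold change of the median gene is given for each comparison in which it was more than 0.1 from 0. The targeted genes fell with their labels: *Etv5* had a normalized count of 2092 to 3373 in Etv5-KO libraries against 11984 to 16791 in RGd2 2i and N16h, and *Rbpj* 976 to 2797 in Rbpj-KO libraries against 3981 to 12766 in the same RGd2 cultures. In ER-dKO, *Rbpj* ranged from 1138 to 3489 and overlapped RGd2 2i-p5 (2830 to 3385), and a count over the whole gene does not show whether exons outside the deletion were read. *Tcf7l1*, the gene of TCF3, was at 29.1 to 120 in ETR-tKO. Pluripotent identity was checked by *Pou5f1*, *Sox2* and *Sall4*, whose summed level was 383 to 801 FPKM over all libraries. The 5 primitive endoderm markers summed to 0.24 to 9.49 FPKM and the 4 fibroblast markers to 0.107 to 6.46, both highest in RGd2 N72h; their part in the results was not tested.

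On GRCm38 the maintenance genes lie at positions 20907209 to 20959888 of chromosome 9 (*Dnmt1*, minus strand) and 56303321 to 56323486 of chromosome 17 (*Uhrf1*, plus). The de novo genes lie at 3806007 to 3914443 of chromosome 12 (*Dnmt3a*), 153649450 to 153687730 of chromosome 2 (*Dnmt3b*) and 78041947 to 78063622 of chromosome 10 (*Dnmt3l*), all on the plus strand. *Tet1* lies at 62804570 to 62908996 of chromosome 10, *Tet2* at 133463679 to 133545139 of chromosome 3, *Tet3* at 83362373 to 83459084 of chromosome 6 and *Prdm14* at 13113457 to 13127163 of chromosome 1, all on the minus strand. Promoters of the de novo genes are shown because these genes moved in opposite directions in the mutants. Each is 250 bases before to 50 after an annotated start in RefSeq on GRCm38.p6, with every CpG in capitals. *Dnmt3b* has its promoter at chr2:153649199-153649498 on the plus strand, with 30 CpG sites, more than 88.3% of 32851 promoters of this length. *Dnmt3l* has 3 annotated starts on the plus strand of chromosome 10, and the first window, chr10:78042037-78042336, held 6 CpG sites, close to the median of 7 over all promoters. *Dnmt3a* has an internal start with the window chr12:3891494-3891793 on the plus strand, with 18 CpG sites, shown because it holds the RBPJ letters searched for next; its other 2 starts have windows with 46 and 47 CpG sites.
Dnmt3b: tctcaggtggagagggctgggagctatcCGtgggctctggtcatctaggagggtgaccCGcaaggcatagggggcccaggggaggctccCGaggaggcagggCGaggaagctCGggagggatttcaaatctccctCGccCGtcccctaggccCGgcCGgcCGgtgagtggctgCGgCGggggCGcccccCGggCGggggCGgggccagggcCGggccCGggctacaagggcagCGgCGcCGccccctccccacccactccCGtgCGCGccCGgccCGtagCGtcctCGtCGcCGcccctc
Dnmt3l: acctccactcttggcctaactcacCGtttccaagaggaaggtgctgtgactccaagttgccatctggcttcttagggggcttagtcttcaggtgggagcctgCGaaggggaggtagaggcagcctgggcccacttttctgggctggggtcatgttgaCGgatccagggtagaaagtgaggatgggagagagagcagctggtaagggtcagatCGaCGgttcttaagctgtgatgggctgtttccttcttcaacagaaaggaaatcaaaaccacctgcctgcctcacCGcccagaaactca
Dnmt3a: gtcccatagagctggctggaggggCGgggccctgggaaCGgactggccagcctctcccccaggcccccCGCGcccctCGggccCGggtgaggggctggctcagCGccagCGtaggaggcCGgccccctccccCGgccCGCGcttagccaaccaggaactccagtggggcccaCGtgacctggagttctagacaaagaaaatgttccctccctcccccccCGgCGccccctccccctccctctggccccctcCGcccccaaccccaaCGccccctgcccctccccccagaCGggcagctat
The letters TGGGAA, recognized by RBPJ, were searched on both strands and were found in 4 of 15 member promoters, beside 25.6% of all promoters. They lay 218 bases before the internal *Dnmt3a* start, and 170, 121 and 140 bases before starts of *Tet1*, *Tet3* and *Dnmt1*. The ETS letters CCGGAAGT and the TCF letters CTTTGAT were found in none of the 15, beside 3.89% and 3.73% of all promoters. Of the 9 members, 8 had a promoter entry; *Prdm14* had none. Gene counts do not show which start was used.

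**Figure D1:**
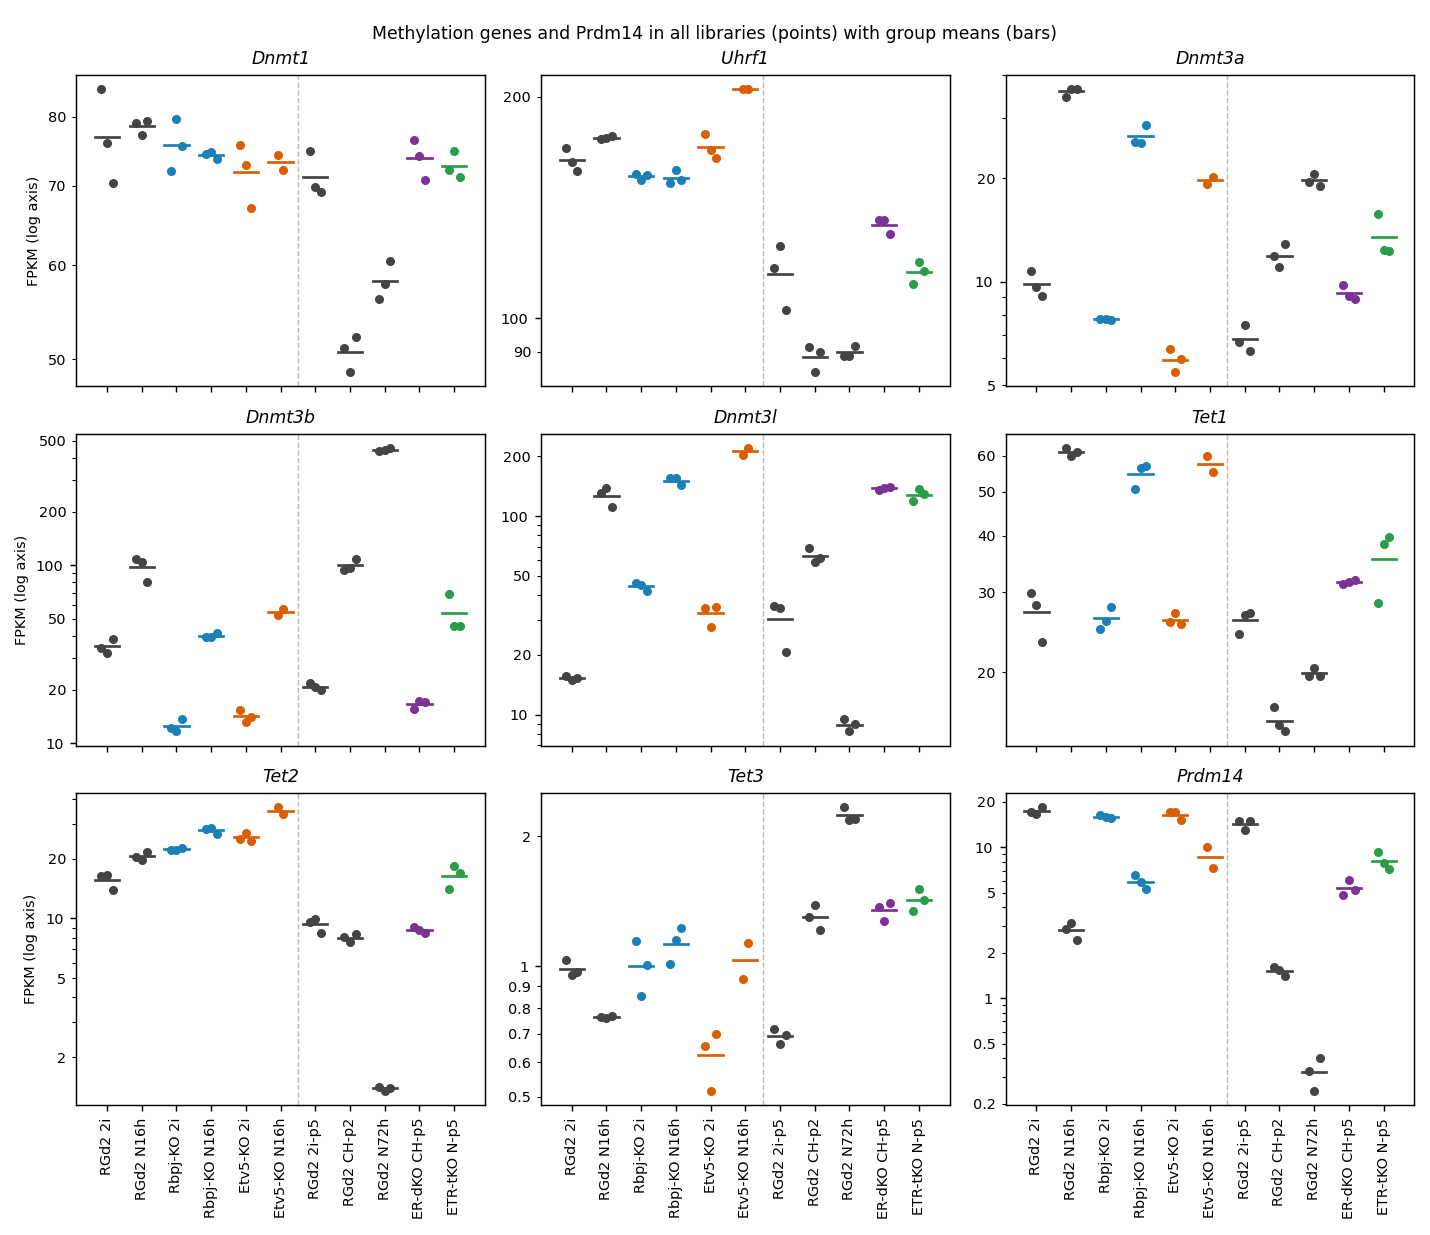
FPKM of the 9 genes (log axis, a separate scale per gene) in all 32 libraries. Points are libraries, bars are group means, colours are genotypes, and the dashed line separates the libraries of the single-mutant experiment (left) from the others (right). *Dnmt3b* was highest in RGd2 N72h (436 to 455 FPKM), where *Dnmt3l* was lowest (8.24 to 9.49 FPKM).

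During the first 16 h of exit RGd2 cells raised all 3 de novo genes and *Tet1* and lowered *Prdm14*, while *Dnmt1* and *Uhrf1* were not called. Of the 9 members 4 rose and 1 fell at N16h against 2i, beside 28.6% of all genes tested that were called, 5.37% higher and 23.2% lower. Spike-scaled counts did not overlap between the groups for 6 members, beside 42.1% of genes. *Dnmt3l* had the largest rise. Its FPKM was 15.7, 15 and 15.3 in the 2i libraries and 130, 138 and 111 at N16h, a log2 fold change of 2.82 (SE 0.15, adjusted p = 1.82e-18). *Dnmt3a* rose from 10.7, 9.64 and 9.09 to 34.5, 36.4 and 36.3 FPKM (log2 fold change 1.63, SE 0.13, adjusted p = 6.85e-14). For *Dnmt3b* the values were 34.2, 32.2 and 38.7 in 2i and 108, 104 and 80.5 at N16h (log2 fold change 1.28, SE 0.13, adjusted p = 6.09e-11). No N16h library of these 3 genes overlapped a 2i library, and the lowest N16h values of *Dnmt3b* and *Dnmt3l* both came from replicate 24, of the clonal RGd2 line. *Tet1*, the TET gene with the highest mean FPKM in every condition, went from 23.3 to 29.9 FPKM in 2i to 59.9 to 62.4 at N16h (log2 fold change 0.94, SE 0.14, adjusted p = 5.39e-07). *Prdm14* dropped from 17.1, 16.7 and 18.4 FPKM to 2.88, 3.13 and 2.43 (log2 fold change −2.83, SE 0.14, adjusted p = 7.31e-20). The log2 fold change of *Dnmt1* was −0.20 (adjusted p = 0.159) and that of *Uhrf1* −0.12 (adjusted p = 0.422), both from edgeR with Benjamini-Hochberg adjustment, and both were slightly positive, 0.03 and 0.11, with TMM scaling on the gene counts. The median gene was at −0.23 with spike-ins and 0.00 with TMM, under which *Tet2* was also called higher (log2 fold change 0.40, adjusted p = 0.000126). Without RGd2 2i replicate 33 *Dnmt1* was called lower (−0.36, adjusted p = 0.0032), and without replicate 31 *Tet2* was called higher (0.34, adjusted p = 0.0227). *Tet3* had a log2 fold change of −0.61 (−0.38 with TMM) but stayed under 1 FPKM on average in both groups, so it was not called. The 4 trophoblast markers summed to 10.6 to 14.8 FPKM in 2i and 1.08 to 1.26 at N16h, with 1 of them at 0 in both groups. The 4 mesendoderm markers summed to 8.23 to 11.7 and 1.63 to 2.10. In each list 2 of the 4 averaged under 1 FPKM in 2i and 3 of the 4 at N16h. The part of these lists in the results was not tested.

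At 72 h the de novo genes had parted. Against RGd2 2i-p5, 3 members were higher and 5 lower at N72h, beside 37.0% of all genes tested (22.2% higher, 14.8% lower), and spike-scaled counts did not overlap for any of the 9, beside 66.2% of genes. Here the median gene was at 0.11. *Dnmt3b* stood at 436, 443 and 455 FPKM against 21.7, 20.7 and 19.9, a log2 fold change of 4.47 (SE 0.14, adjusted p = 3.77e-26). *Dnmt3l* was instead down, at 9.49, 8.24 and 8.95 FPKM against 35.4, 34.6 and 20.7 (log2 fold change −1.71, SE 0.15, adjusted p = 8.71e-13). Every N72h library lay above every 2i-p5 library for *Dnmt3b* and below for *Dnmt3l*. *Dnmt3a* was higher at 19 to 20.6 FPKM against 6.3 to 7.5 (log2 fold change 1.58, SE 0.13, adjusted p = 7.72e-14). Among the TET genes, *Tet2* fell from 9.63, 9.96 and 8.44 FPKM to 1.42, 1.36 and 1.41 (log2 fold change −2.70, SE 0.13, adjusted p = 2.07e-20), while *Tet3*, best known from oocytes and neurons, rose from 0.691 to 2.23 FPKM on average (log2 fold change 1.74, SE 0.15, adjusted p = 3.45e-13). *Prdm14* was at its lowest of all conditions, at 0.326, 0.243 and 0.401 FPKM against 15, 13.1 and 14.9 (log2 fold change −5.34, SE 0.18, adjusted p = 1.93e-25). *Uhrf1* and *Tet1* fell by 0.31 and 0.34 on the log2 scale (adjusted p = 0.0183 and 0.036), and neither was called without RGd2 2i-p5 replicate 2 (−0.20 and −0.28) or without RGd2 N72h replicate 7 (−0.26 and −0.29). *Dnmt1* had a log2 fold change of −0.24 and was not called (adjusted p = 0.0724). It was called lower with TMM (−0.36, adjusted p = 8.89e-06) and with median-of-ratios on gene counts (−0.35, adjusted p = 1.53e-06). The same held with only the compared libraries modelled (−0.23, adjusted p = 0.0344) and against RGd2 2i (−0.68, adjusted p = 2.59e-06). By mean FPKM, RGd2 2i lay between 2i-p5 and N72h in *Dnmt3a* (9.82), *Dnmt3b* (35.0), *Dnmt3l* (15.3) and *Tet3* (0.987). It lay further from N72h than 2i-p5 did in *Uhrf1* (164), *Tet2* (15.6) and *Prdm14* (17.4). The sizes of these differences therefore rest on the baseline. Of the 4 neural markers, *Nes* had a mean of 45.9 FPKM at N72h against 3.43 in 2i-p5, while the other 3 were under 1 FPKM and *Zic1* was at 0 in all N72h libraries; the part of this in the results was not tested. N16h and N72h were not tested against each other, since their 2i baselines are separate cultures.

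RGd2 cells at passage 2 in CH had more *Dnmt3b*, *Dnmt3a* and *Dnmt3l* and less *Prdm14* than in 2i-p5. Here 4 members were higher and 3 lower, beside 26.9% of all genes tested (18.3% higher, 8.65% lower), and spike-scaled counts did not overlap for 7, beside 54.8% of genes, with the median gene at 0.17. *Dnmt3b* was at 94.4, 96.9 and 109 FPKM (log2 fold change 2.39, SE 0.13, adjusted p = 3.67e-18) and *Dnmt3l* at 68.8, 59.1 and 61.2 (log2 fold change 1.20, SE 0.14, adjusted p = 6.71e-09), all above the 2i-p5 libraries. *Prdm14* was at 1.61, 1.53 and 1.39 FPKM (log2 fold change −3.12, SE 0.15, adjusted p = 2.95e-19). *Dnmt3a* (log2 fold change 0.93) and *Tet3* (1.04) were higher than in 2i-p5, but against RGd2 2i of the other experiment their log2 fold changes were 0.08 and 0.19 and neither was called. *Tet1* (log2 fold change −0.61, adjusted p = 0.000451) and *Dnmt1* (−0.36, adjusted p = 0.0103) were lower, and the group means of both genes, 15.6 and 50.7 FPKM, were the lowest of the 11 conditions. *Dnmt1* was not called without RGd2 CH-p2 replicate 5 (−0.31, adjusted p = 0.0542). *Uhrf1* had a log2 fold change of −0.25 (adjusted p = 0.0735), which passed the threshold with the clonal line as a block (adjusted p = 0.0404) and with TMM (−0.43). The 4 mesendoderm markers summed to 69.9 to 73.4 FPKM in CH-p2 and 8.84 to 10.1 in 2i-p5, and their part in these differences was not tested. In each of these groups 2 of the 4 averaged under 1 FPKM, so the sums rest on the others.

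The pair of RGd2 cultures in 2i differed from each other in these genes. In 2i-p5 1 member was higher and 7 lower than in 2i, beside 32.0% of all genes tested (1.77% higher, 30.2% lower). Spike-scaled counts did not overlap for 7, beside 40.2% of genes. The median gene was at −0.37, and with TMM, where it was at −0.03, 1 member was higher and 4 lower, beside 15.6% of all genes. *Dnmt3b* was lower in 2i-p5 (log2 fold change −1.05, SE 0.13, adjusted p = 7.04e-08; −0.72 with TMM), as were *Dnmt3a* (−0.85; −0.51 with TMM), *Uhrf1* (−0.82; −0.49 with TMM) and *Tet2* (−1.06; −0.72 with TMM). *Dnmt3l* was higher (log2 fold change 0.65, SE 0.15, adjusted p = 0.000584), with values of 20.7 FPKM in the clonal line and 35.4 and 34.6 in the parental cultures, all above the 2i libraries. The calls of *Dnmt1* (log2 fold change −0.44), *Tet1* (−0.38) and *Prdm14* (−0.59) were lost with TMM. Those of *Dnmt1* and *Tet1* were also lost with the clonal line as a block (adjusted p = 0.1 and 0.171). Any comparison across the 2 sets of cultures, called experiments here, carries this difference.

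In 2i, before exit, both single mutants had less *Dnmt3b* and *Dnmt3a* and more *Dnmt3l* and *Tet2* than RGd2. In Rbpj-KO 2 members were higher and 2 lower, beside 6.94% of all genes tested (3.20% higher, 3.74% lower), and spike-scaled counts did not overlap for 4, beside 15.6% of genes. In Etv5-KO 2 were higher and 2 lower, beside 20.8% (3.76% higher, 17.1% lower), and counts did not overlap for 5, beside 28.2%. Both comparisons share the RGd2 2i libraries. *Dnmt3b* was at 12.2, 11.7 and 13.7 FPKM in Rbpj-KO (log2 fold change −1.53, SE 0.13, adjusted p = 1.32e-11) and 15.4, 13.1 and 14 in Etv5-KO (log2 fold change −1.45, SE 0.13, adjusted p = 8.86e-12), against 32.2 to 38.7 in RGd2. *Dnmt3l* was at 46.3, 44.9 and 42 FPKM in Rbpj-KO (log2 fold change 1.46, SE 0.15, adjusted p = 1e-09) and 34.4, 27.8 and 34.9 in Etv5-KO (log2 fold change 0.90, SE 0.14, adjusted p = 5.8e-06), against 15 to 15.7 in RGd2. For both genes all mutant libraries lay apart from all RGd2 2i libraries, in opposite directions. RGd2 2i-p5 differed from RGd2 2i in the same directions for both genes, without a mutation. Its *Dnmt3l*, at 20.7 to 35.4 FPKM, overlapped Etv5-KO and lay below Rbpj-KO. Its *Dnmt3b*, at 19.9 to 21.7 FPKM, lay above both mutants. Its *Dnmt3a*, at 6.30 to 7.50 FPKM, was also below RGd2 2i, overlapped Etv5-KO and lay below Rbpj-KO. Its *Tet2*, at 8.44 to 9.96 FPKM, lay below RGd2 2i, the direction opposite to that of the mutants. *Dnmt3a* was at 5.46 to 6.36 FPKM in Etv5-KO (log2 fold change −0.90, SE 0.12, adjusted p = 3.61e-07) and 7.73 to 7.79 in Rbpj-KO (log2 fold change −0.41, SE 0.12, adjusted p = 0.0237), against 9.09 to 10.7 in RGd2. *Tet2* was at 24.7 to 26.9 FPKM in Etv5-KO (log2 fold change 0.55, SE 0.12, adjusted p = 0.000592) and 22.2 to 22.7 in Rbpj-KO (log2 fold change 0.45, SE 0.12, adjusted p = 0.00951), against 13.9 to 16.5. The Rbpj-KO call of *Dnmt3a* was lost without RGd2 2i replicate 31, the library with the lowest spike-in share (log2 fold change −0.19), and that of *Tet2* without replicate 33 (log2 fold change 0.29). With only the Rbpj-KO 2i and RGd2 2i libraries in the model, neither was called (adjusted p = 0.321 and 0.201). *Prdm14*, *Dnmt1*, *Uhrf1* and *Tet1* were not called in either mutant, with log2 fold changes between −0.27 and −0.09. Without RGd2 2i replicate 33, *Dnmt1* (−0.42, adjusted p = 0.000837) and *Tet1* (−0.41, adjusted p = 0.00651) were called lower in Etv5-KO, as was *Dnmt1* (−0.34, adjusted p = 0.0421) without Etv5-KO 2i replicate 25. *Tet3* in Etv5-KO had a log2 fold change of −0.85 (adjusted p = 1.46e-05) at means of 0.624 against 0.987 FPKM, under the minimum for a call, and in Rbpj-KO of −0.07. *Prdm14* was at 15.7 to 16.4 FPKM in Rbpj-KO and 15.2 to 17.2 in Etv5-KO, overlapping in the second case the 16.7 to 18.4 of RGd2. The median gene was at −0.06 in the Rbpj-KO and at −0.23 in the Etv5-KO comparison. Of the 4 neural markers *Nes* had a mean of 12.6 FPKM in Rbpj-KO 2i against 2.57 in RGd2 2i, and the other 3 were under 1 FPKM on average; the part of this in the result was not tested.

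**Figure D2:**
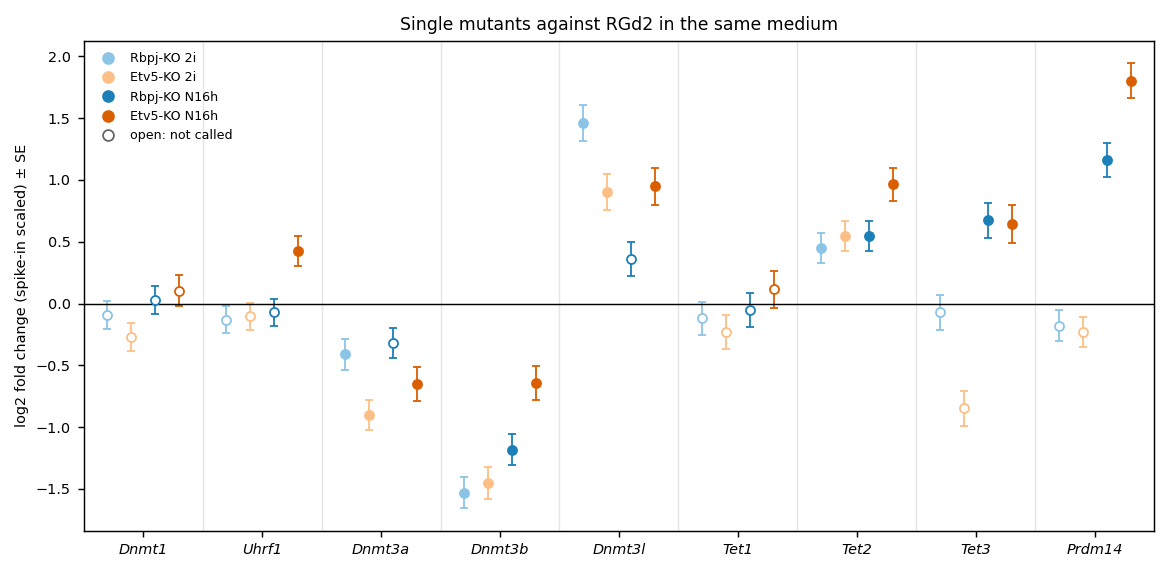
Log2 fold change (spike-in scaled, vertical axis) of each gene in Rbpj-KO and Etv5-KO against RGd2, in 2i (pale) and at N16h (dark). Bars are standard errors and open points were not called. *Dnmt3b* lay between −1.53 and −0.64 in all 4 comparisons, *Tet2* between 0.45 and 0.96, and *Prdm14* was close to 0 in 2i and at 1.16 and 1.80 at N16h.

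At N16h the mutants still had less *Dnmt3b* and more *Tet2* than RGd2, and now also more *Prdm14*. In Rbpj-KO 3 members were higher and 1 lower, beside 13.8% of all genes tested (11.7% higher, 2.12% lower), and spike-scaled counts did not overlap for 6, beside 48.3% of genes. In Etv5-KO 5 were higher and 2 lower, beside 20.2% (18.2% higher, 2.01% lower), and counts did not overlap for any of the 9, beside 64.6%. RGd2 N16h is shared by both. *Prdm14* was at 6.55, 5.87 and 5.28 FPKM in Rbpj-KO (log2 fold change 1.16, SE 0.14, adjusted p = 1.6e-08) and 10.1 and 7.26 in Etv5-KO (log2 fold change 1.80, SE 0.14, adjusted p = 1.31e-12), all above the 2.43 to 3.13 of RGd2. *Dnmt3b* was at 39.4, 39.4 and 41.3 FPKM in Rbpj-KO (log2 fold change −1.18, SE 0.12, adjusted p = 1.61e-09) and 52.4 and 56.5 in Etv5-KO (log2 fold change −0.64, SE 0.14, adjusted p = 0.000542), all below the 80.5 to 108 of RGd2. *Dnmt3l* was at 204 and 220 FPKM in Etv5-KO (log2 fold change 0.95, SE 0.15, adjusted p = 7.66e-06). In Rbpj-KO it was at 144 to 155 FPKM, a log2 fold change of 0.36 that was not called (adjusted p = 0.0665), but was with only the compared libraries modelled (adjusted p = 0.00308) and with no low-count filter (adjusted p = 0.0173). *Dnmt3a* was lower in Etv5-KO (19.2 and 20.2 against 34.5 to 36.4 FPKM, log2 fold change −0.65, SE 0.14, adjusted p = 0.000387). In Rbpj-KO *Dnmt3a* had a log2 fold change of −0.32 (adjusted p = 0.0621), which was called with TMM (−0.48, adjusted p = 4.76e-05), as was *Uhrf1* (−0.23, adjusted p = 0.00382; −0.07 with spike-ins). *Tet2* was at 36.3 and 33.6 FPKM in Etv5-KO (log2 fold change 0.96, SE 0.13, adjusted p = 3.42e-07) and 26.5 to 28.7 in Rbpj-KO (log2 fold change 0.54, SE 0.12, adjusted p = 0.000777), against 19.8 to 21.7. *Tet3* had a log2 fold change of 0.67 in Rbpj-KO and 0.65 in Etv5-KO, at 1.13 and 1.03 FPKM against 0.765, and *Uhrf1* was higher in Etv5-KO (0.42, adjusted p = 0.0079). Without Etv5-KO N16h replicate 18 neither *Tet3* (0.43) nor *Uhrf1* (0.36) was called in that line. The median gene was at 0.15 in the Rbpj-KO and 0.24 in the Etv5-KO comparison, and *Tet1* and *Dnmt1* kept within 0.11 of 0 in both, and under TMM these values were −0.21 and −0.13 in Rbpj-KO and −0.12 and −0.14 in Etv5-KO. Summed naive markers (6 genes) were also higher at N16h in Etv5-KO (653 to 703 FPKM) and Rbpj-KO (499 to 548) than in RGd2 (341 to 356), and the 4 neural markers summed to 19.5 to 21.4 FPKM in Rbpj-KO, 2.69 to 2.75 in Etv5-KO and at least 3.32 in RGd2. The part of either list in these differences was not tested.

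The response to 16 h of exit was then compared between genotypes. In Rbpj-KO cells 4 members were higher and 1 lower at N16h than in 2i, beside 17.4% of all genes tested (7.21% higher, 10.1% lower), and spike-scaled counts did not overlap for 7, beside 47.6% of genes. In Etv5-KO cells 7 were higher and 1 lower, beside 25.5% (19.6% higher, 5.93% lower), and counts did not overlap for 8, beside 64.3%. The median gene was at −0.01 in Rbpj-KO and 0.24 in Etv5-KO. In both lines all 3 de novo genes and *Tet1* rose and *Prdm14* fell, as in RGd2. *Prdm14* fell by 2.83 on the log2 scale in RGd2, by 1.49 in Rbpj-KO and by 0.79 in Etv5-KO. The difference from the RGd2 response was 1.34 in Rbpj-KO (SE 0.18, adjusted p = 6.18e-06) and 2.04 in Etv5-KO (SE 0.19, adjusted p = 1.46e-10), and 1.13 and 1.57 with TMM. The rise of *Dnmt3l* in Rbpj-KO was 1.71, less than in RGd2 by 1.10 (SE 0.20, adjusted p = 0.000543), from a higher level in 2i (44.4 against 15.3 FPKM). In Etv5-KO its rise was 2.86, and the difference from RGd2 of 0.04 (adjusted p = 0.896) turned to −0.44 with TMM. *Dnmt3b* rose more in Etv5-KO (2.09 against 1.28 in RGd2, difference 0.81, SE 0.18, adjusted p = 0.00124) and reached a lower level, 54.4 against 97.8 FPKM. With TMM this difference was 0.34 and was not called (adjusted p = 0.208). For Rbpj-KO it was 0.35 (adjusted p = 0.338). *Tet3* differed by 0.74 in Rbpj-KO (SE 0.20, adjusted p = 0.0279; 0.0524 with the clonal line as a block and 0.061 with TMM) and by 1.49 in Etv5-KO (SE 0.21, adjusted p = 1.04e-06), at mean levels of 0.624 to 1.13 FPKM. From 2i to N16h *Tet3* changed by −0.61 in RGd2, under the FPKM minimum, and by 0.13 in Rbpj-KO, which was not called. In Etv5-KO it rose by 0.88, from a 2i mean of 0.624 FPKM against 0.987 in RGd2. The Rbpj-KO difference of *Tet3* was not called when any of 7 of the 12 libraries was left out, with values of 0.56 (without RGd2 2i replicate 31) to 0.76 (without Rbpj-KO 2i replicate 30).

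In all, 3 members differed in their response between Rbpj-KO and RGd2, beside 2.59% of all genes tested (2.44% higher, 0.154% lower), and 4 between Etv5-KO and RGd2, beside 24.2% (23.8% higher, 0.344% lower). The median gene of the Rbpj-KO difference was at 0.22. The Etv5-KO background rests on the scaling: the median gene differed by 0.47 with spike-ins and −0.01 with TMM, under which 8.47% of genes and 2 members, *Tet3* and *Prdm14*, were called. *Uhrf1* (difference 0.52, adjusted p = 0.0155) was not called with TMM (0.05), with the clonal line as a block (adjusted p = 0.119) or without RGd2 2i replicate 31. Without Etv5-KO N16h replicate 18 there were 2 members called, *Dnmt3b* and *Prdm14* (*Tet3* fell under 1 FPKM), and without RGd2 2i replicate 33 there were 8. The clonal-line block also removed the call of *Uhrf1* between Etv5-KO N16h and 2i (log2 fold change 0.40, adjusted p = 0.119 with the block) and added *Tet2* in Rbpj-KO (log2 fold change 0.27, adjusted p = 0.00646 with the block). TMM removed that *Uhrf1* call too (0.16), and its value was 0.34 without Etv5-KO N16h replicate 18. That *Tet2* call was also gained with TMM (0.28), with median-of-ratios on gene counts (0.31) and with only the compared libraries modelled (0.27).

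**Figure D3:**
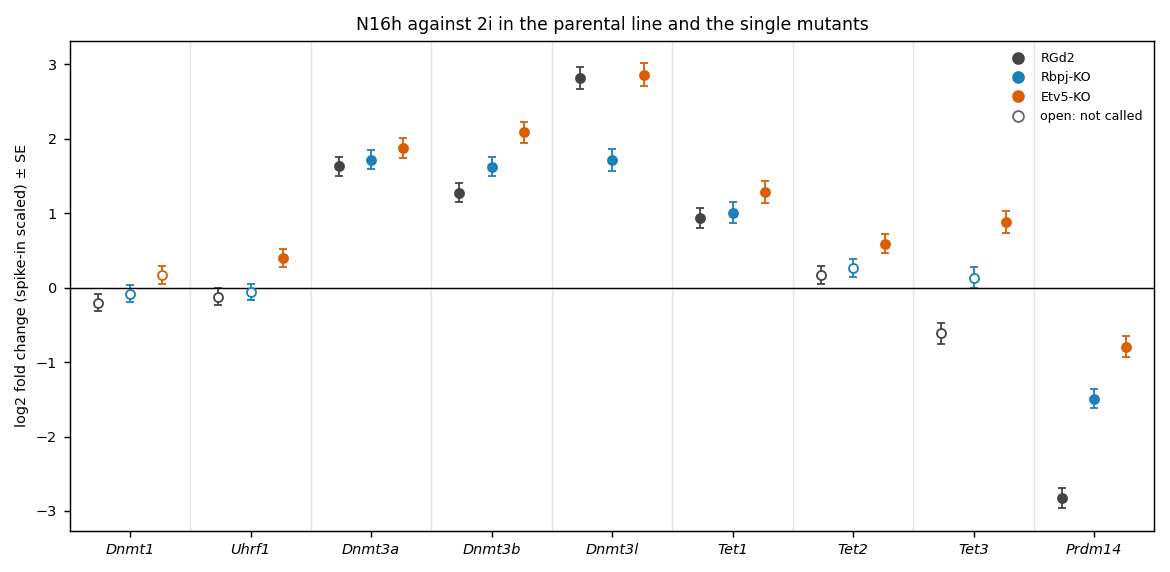
Log2 fold change (spike-in scaled, vertical axis) from 2i to N16h for each gene in RGd2, Rbpj-KO and Etv5-KO. Bars are standard errors and open points were not called. *Prdm14* was at −2.83, −1.49 and −0.79 in the 3 genotypes, *Dnmt3l* at 2.82, 1.71 and 2.86.

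ER-dKO cells self-renewing in CH had less *Dnmt3b* and more *Dnmt3l* and *Prdm14* than RGd2 cells in CH. The groups also differed in passage (5 against 2). Summed naive markers (6 genes) were at 744 to 754 FPKM in ER-dKO and 256 to 290 in RGd2 CH-p2. The paper reads the clustering of RGd2 CH-p2 and N72h as that of cells past exit from the ESC state. The part of these differences in the results was not tested. Against RGd2 CH-p2 5 members were higher and 1 lower, beside 31.8% of all genes tested (18.1% higher, 13.6% lower), and spike-scaled counts did not overlap for 8, beside 64.5% of genes. *Dnmt3b* was at 15.5, 17.2 and 17.2 FPKM against 94.4, 96.9 and 109 (log2 fold change −2.46, SE 0.13, adjusted p = 8.33e-19), and *Dnmt3l* at 136, 138 and 141 against 68.8, 59.1 and 61.2 (log2 fold change 1.25, SE 0.14, adjusted p = 1.16e-09). *Prdm14* was at 4.83, 6.04 and 5.18 FPKM against 1.39 to 1.61 (log2 fold change 1.95, SE 0.15, adjusted p = 9.44e-14). *Tet1* (log2 fold change 1.14), *Uhrf1* (0.72) and *Dnmt1* (0.66) were higher as well, and no library of these 6 genes overlapped between the groups. Against RGd2 2i-p5 6 members were higher and 1 lower, beside 25.9% of all genes tested (20.8% higher, 5.16% lower; counts without overlap for 7 members, beside 64.4%), with the median gene at 0.20. *Dnmt3l* had the largest difference (log2 fold change 2.45, SE 0.15, adjusted p = 1.59e-16) and *Prdm14* was lower (−1.17, SE 0.13, adjusted p = 1.65e-09). *Dnmt3b* had a log2 fold change of −0.07 (adjusted p = 0.71) against 2i-p5 but −1.12 (adjusted p = 2.07e-09) against RGd2 2i of the other experiment. The values of *Dnmt3a* (0.69), *Uhrf1* (0.47) and *Dnmt1* (0.31), called against 2i-p5, turned to −0.16, −0.35 and −0.13 against RGd2 2i, where *Uhrf1* was called lower (adjusted p = 0.0117). *Tet2* turned from 0.16 to −0.90 and was called lower (adjusted p = 1.06e-07), and *Tet1* (0.53) was not called there (0.15). The call of *Dnmt1* against 2i-p5 was also lost with any of the 6 libraries left out and with TMM (0.14).

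ETR-tKO cells in N2B27 differed from RGd2 N72h in the same medium in all 9 members, 6 higher and 3 lower, beside 38.6% of all genes tested (23.2% higher, 15.4% lower). Spike-scaled counts did not overlap for any of the 9, beside 67.2% of genes, with the median gene at 0.11. Time in N2B27 differed (5 passages against 72 h). Summed naive markers were at 713 to 783 FPKM in ETR-tKO and 51.9 to 56.0 in RGd2 N72h. The part of these differences in the results was not tested. *Prdm14* was at 9.25, 7.89 and 7.21 FPKM against 0.243 to 0.401 (log2 fold change 4.75, SE 0.18, adjusted p = 5.32e-24). *Dnmt3l* was at 119, 136 and 129 FPKM against 8.24 to 9.49 (log2 fold change 4.04, SE 0.16, adjusted p = 2.67e-23). *Dnmt3b* was at 69.2, 45.8 and 45.7 FPKM against 436 to 455 (log2 fold change −2.88, SE 0.13, adjusted p = 2.79e-21). Every ETR-tKO library lay above every N72h library for *Prdm14* and *Dnmt3l*, and below for *Dnmt3b*. *Tet2* was at 14.1, 18.3 and 16.9 FPKM against 1.36 to 1.42 (log2 fold change 3.75, SE 0.14, adjusted p = 1.64e-24), and *Tet1* at 28.4, 38.3 and 39.7 against 19.6 to 20.4 (log2 fold change 1.02, SE 0.14, adjusted p = 4.6e-08). Replicate 13, the clone made in another order of deletions from the other two, had the highest *Dnmt3b* and *Dnmt3a* and the lowest *Tet1* and *Tet2* of the 3; without it the log2 fold changes of *Dnmt3b* and *Tet2* were −3.06 and 3.88. *Dnmt3a* (log2 fold change −0.38) was not called without RGd2 N72h replicate 8 (−0.30). Against RGd2 2i-p5 6 members were higher and 1 lower, beside 29.6% of all genes tested (23.6% higher, 5.96% lower; counts without overlap for 8 members, beside 59.1%), with the median gene at 0.27. *Dnmt3l* was higher by a log2 fold change of 2.32 (2.97 against RGd2 2i), *Dnmt3b* by 1.58 (0.53 against RGd2 2i) and *Tet3* by 1.27 (0.42 against RGd2 2i). *Prdm14* was lower (−0.60, SE 0.13, adjusted p = 0.000228; −1.18 against RGd2 2i). *Dnmt3a* was at 1.20 (0.35 against RGd2 2i). *Tet2* (1.05) and *Tet1* (0.68) were not called against RGd2 2i (−0.01 and 0.30), where *Uhrf1* was called lower (−0.59, adjusted p = 3.67e-05) in place of 0.24 with no call. Without replicate 13, *Dnmt1* (0.31) and *Uhrf1* (0.30) were called higher than in 2i-p5, and *Uhrf1* also without RGd2 2i-p5 replicate 2 (0.35).

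The summed level of *Dnmt1*, *Dnmt3a*, *Dnmt3b* and *Dnmt3l* and the share of each differed by condition. In RGd2 2i the sum was 137 ± 6.83 FPKM (SD, n = 3), of which *Dnmt1* made up 56.1% ± 2.92, *Dnmt3b* 25.6% ± 2.98 and *Dnmt3l* 11.2%. At N16h the sum was 339 ± 27.4 FPKM and at N72h 531 ± 10.9, with *Dnmt3l* at 37.3% ± 1.37 and 1.67% ± 0.134, and *Dnmt3b* at 28.8% and 83.7%. *Dnmt3l* had the largest share of the 4 in all N16h groups, with 59.0% in Etv5-KO and 51.8% in Rbpj-KO. It also did in the self-renewing mutants, with 58.1% ± 1.06 in ER-dKO and 47.9% ± 4.13 in ETR-tKO. RGd2 CH-p2, in the medium of ER-dKO, had 27.9%, and RGd2 2i-p5 23.1%. *Dnmt3b* took 6.98% in ER-dKO, against 44.3% in RGd2 CH-p2. In ETR-tKO it took 19.9% (17.0% to 25.1%), against 83.7% in RGd2 N72h, which shares its medium. RGd2 2i-p5 had a *Dnmt3b* share of 16.2% (15.7% to 17.2%), which overlapped that of ETR-tKO. In 2i *Dnmt3b* took 8.93% in Rbpj-KO and 11.4% in Etv5-KO, and at N16h 13.7% and 15.1%. Of the TET sum, *Tet2* made up 48.9% in Etv5-KO 2i and 45.1% in Rbpj-KO 2i, against 35.7% in RGd2 2i, and 5.94% in RGd2 N72h. These shares do not depend on the scaling between libraries. They do depend on the merged exon length of each gene, such as 16642 bases for *Dnmt3a* and 2988 for *Dnmt3l*. Which transcripts were used was not determined, so the order of genes by share is approximate. *Dnmt3c*, a rodent gene close to *Dnmt3b* in sequence, had 0 to 18 counts per library, at most 0.186% of *Dnmt3b*; reads that match more than one place equally were not counted, so *Dnmt3b* may be understated.

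**Figure D4:**
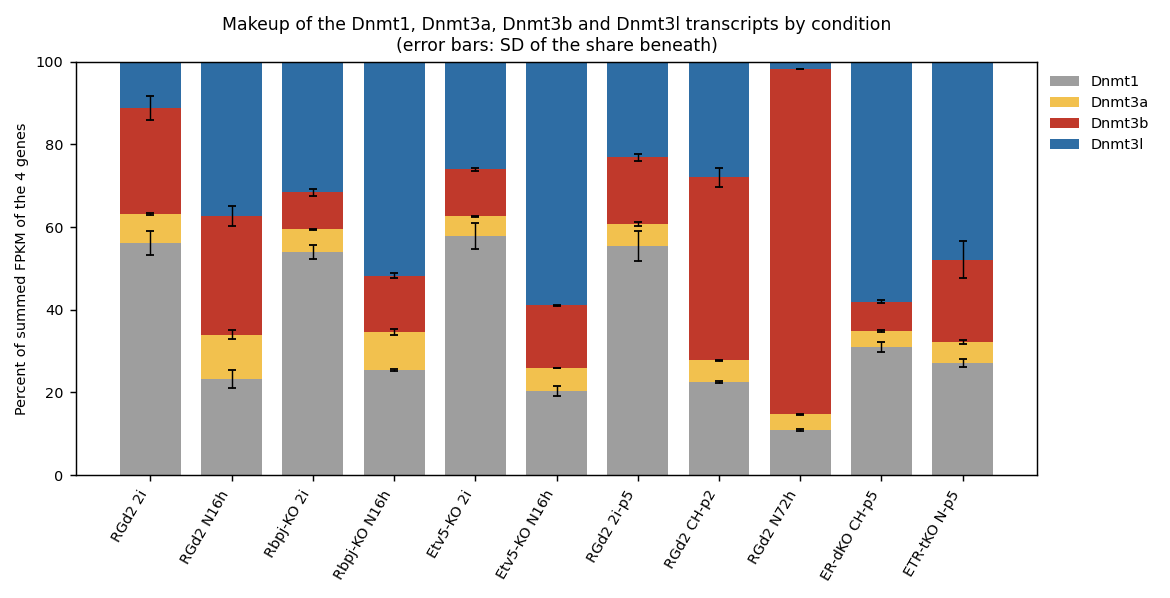
Percent of the summed FPKM of *Dnmt1*, *Dnmt3a*, *Dnmt3b* and *Dnmt3l* taken by each gene (vertical axis, from 0) in the 11 conditions, as means over libraries with the SD of the share beneath each error bar. *Dnmt3b* took 83.7% in RGd2 N72h and 6.98% in ER-dKO CH-p5, and *Dnmt3l* 1.67% and 58.1%.

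Ordered by mean FPKM, *Dnmt3b* ran from RGd2 N72h (445) through RGd2 CH-p2 (100) and RGd2 N16h (97.8), whose libraries overlapped, to Etv5-KO 2i (14.2) and Rbpj-KO 2i (12.5), which overlapped too. *Dnmt3l* ran from Etv5-KO N16h (212) and Rbpj-KO N16h (151) through ER-dKO (138), ETR-tKO (128) and RGd2 N16h (127), where ETR-tKO overlapped both ER-dKO and RGd2 N16h, down to RGd2 2i (15.3) and RGd2 N72h (8.89). *Prdm14* was highest in the 2i cultures, from 17.4 in RGd2 2i to 14.4 in 2i-p5, intermediate in the mutants outside 2i at 5.35 to 8.69, and lowest in RGd2 N16h (2.82), CH-p2 (1.51) and N72h (0.323). *Tet2* was highest in Etv5-KO N16h (35.0) and lowest in RGd2 N72h (1.40). *Dnmt1* moved least, from 50.7 to 78.5 FPKM, and in 9 of the 11 conditions each neighbour in the order overlapped the next. Over the 11 group means the genes closest in pattern by Pearson's r, among 13325 candidates, were *Ssbp3* (r = 0.97) and *Ahi1* (0.96) for *Dnmt3b*, *Srfbp1* (0.97) and *Enox1* (0.96) for *Dnmt3l*, *Foxp1* (0.97) and *Helz2* (0.95) for *Dnmt3a*, *Zfp654* (0.98) and *Aoah* (0.98) for *Tet2*, and *Kat6b* (0.98) and *Accs* (0.98) for *Prdm14*. *Wdr92* (0.99) and *G3bp1* (0.97) were closest to *Dnmt1*, *Samd1* (0.98) to *Uhrf1*, *Gm48287* and *Tnfsfm13* (0.97 each) to *Tet1*, and *Khdrbs3* (0.97) and *Mplkip* (0.95) to *Tet3*. These are descriptions over 11 points that share libraries and scaling.

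Another 50 genes of the pathway were followed in 7 lists: methyl-CpG readers, partners of maintenance, proteins that protect imprints, enzymes that excise oxidized bases, TET partners, PRDM14 partners with Polycomb repressive complex subunits, and the methyl donor cycle. At N16h against 2i in RGd2 4 were higher and 21 lower, beside 28.6% of all genes called, but with TMM 14 were higher and 15 lower, beside 28.7%. At N72h against 2i-p5 9 were higher and 24 lower, beside 37.0% (9 and 29 with TMM, beside 42%). *Tdh*, the threonine dehydrogenase that feeds one-carbon metabolism in mouse embryonic stem cells, dropped from 282 to 64.3 FPKM at N16h (log2 fold change −2.33, SE 0.12, adjusted p = 1.87e-19) and from 259 to 17.6 at N72h (−3.83, SE 0.12, adjusted p = 7.57e-26). *Jarid2*, a Polycomb cofactor, rose at N16h (1.03), and *Cxxc5*, a CXXC protein that binds TET2, fell (−1.09). In ETR-tKO against RGd2 N72h 26 were higher and 9 lower, beside 38.6% (26 and 12 with TMM, beside 42.9%), among them *Tdh* (2.99) and *Zfp57*, which guards imprints (2.78). ER-dKO against RGd2 CH-p2 gave 26 higher and 7 lower, beside 31.8% (28 and 7 with TMM, beside 37.7%), among them *Idh2*, a source of the TET cofactor 2-oxoglutarate (1.44). *Idh2* was low in RGd2 CH-p2, at 27.5 FPKM against 91.5 in 2i-p5 (−1.60), and ER-dKO, at 68.7 FPKM, did not exceed 2i-p5.

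In 2i 1 of the 50 was higher and 3 were lower in Rbpj-KO, beside 6.94% of all genes called (6 and 3 with TMM, beside 11%), and 2 were higher and 20 lower in Etv5-KO, beside 20.8% (9 and 7 with TMM, beside 20.1%). At N16h the counts were 9 and 2 in Rbpj-KO, beside 13.8% (5 and 12 with TMM, beside 15.6%), and 17 and 0 in Etv5-KO, beside 20.2% (11 and 13 with TMM, beside 17.4%), so the balance of these lists turned with the scaling. *Setdb1*, the H3K9 methyltransferase, was higher in Etv5-KO in 2i (54.1 against 31.4 FPKM, log2 fold change 0.61, adjusted p = 4.02e-05) and at N16h (33.7 against 22.2, log2 fold change 0.80, adjusted p = 2.61e-06). *Dppa3*, whose protein keeps UHRF1 out of the nucleus in oocytes, was scarce. It had 1, 2 and 10 counts in the Rbpj-KO 2i libraries and 4, 12 and 3 in ER-dKO (0.0983 to 0.188 FPKM), against 73 to 145 in RGd2 2i-p5 (7.32 to 8.84 FPKM) and 80 to 118 in CH-p2 (5.65 to 10.3 FPKM). ETR-tKO, which also lacks *Rbpj*, had 93, 7 and 19 counts (2.51, 0.304 and 0.615 FPKM), so 1 of its clones stood apart. *Dppa3* was low in RGd2 outside 2i and CH as well, at 1.10 to 1.39 FPKM at N16h and 0.749 to 0.833 at N72h. In RGd2 2i it had 153 and 161 counts in the parental cultures and 6 in the clonal line, replicate 33, whose FPKM of 1.12 stood between the 4.63 and 5.00 of the parental cultures and the 0.076 to 0.347 of Rbpj-KO. *Uhrf1* itself was at 154 to 157 FPKM in Rbpj-KO 2i and 158 to 170 in RGd2 2i.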

How the data were processed

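Bulk RNA was sequenced from 32 cultures (ribosomal RNA depletion and strand-specific paired-end libraries with ERCC spike-ins, per the methods; the labels name polyA RNA). Per the methods and processing notes, the authors used Trim Galore for trimming, TopHat2 for alignment to mm10 and featureCounts for unique reads per gene and strand, and deposited raw counts per gene, which are the unit used here. Groups and clones were taken from the labels.

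Size factors were medians of ratios over 52 of 92 spike-ins above 0 in every library. Genes passing filterByExpr (18892) entered 1 quasi-likelihood model of all 32 libraries (edgeR 4.0.16, R 4.3.3, two-sided tests), Benjamini-Hochberg adjusted over these genes, and a difference of responses was an interaction term. Calls needed an adjusted p below 0.05 and 1 FPKM or more on average in a group compared. FPKM was computed from the counts and merged exon lengths. Gene IDs without a symbol (193, 0.0259% of counts) were not used for names. Replicates differed by more than sampling noise (chi-square per gene 3.39 to 44.3). The scripts were checked on simulated counts.

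Members and lists were chosen with earlier results of these data known. Partners named were those, of 50, with the largest called changes without overlap between groups, at most 2 per list and 3 per comparison, of which some are printed; genes alike in pattern were the 2 with the highest Pearson r, over log2 group means of spike-scaled counts, among genes with 1 FPKM or more in a group; 1 such gene is not reported here, and *Dppa3* values per library were added after seeing that 1 clonal library stood apart. Clonal lines were shared between 2i and N16h by the labels. Deviations of same-clone libraries had r of 0.0421, 0.0318 and 0.1092 in Rbpj-KO, and 0.0068 and 0.0159 in Etv5-KO. Pairs of different clones in Rbpj-KO had r of −0.0644 to 0.0207. With 2 Etv5-KO N16h libraries the deviations are equal and opposite, so the Etv5-KO values cannot show whether clones pair. Alternatives were TMM and median-of-ratios scaling on gene counts, total spike-in scaling, no low-count filter, no FPKM minimum, DESeq2 1.42.0, separate models, another baseline, the clonal line as a block and each library left out. Figures used matplotlib 3.10.9.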

Additional observations from a re-analysis of the deposited data

Results flagged for a closer look

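The response to 16 h in N2B27 differed from that of RGd2 by an interaction test in 7 cases. In Rbpj-KO the log2 difference was −1.10 for *Dnmt3l* (adjusted p = 0.000543), 0.74 for *Tet3* (adjusted p = 0.0279) and 1.34 for *Prdm14* (adjusted p = 6.18e-06). In Etv5-KO it was 0.52 for *Uhrf1* (adjusted p = 0.0155), 0.81 for *Dnmt3b* (adjusted p = 0.00124), 1.49 for *Tet3* (adjusted p = 1.04e-06) and 2.04 for *Prdm14* (adjusted p = 1.46e-10). These are edgeR quasi-likelihood tests, Benjamini-Hochberg adjusted, with 3 libraries per group, or 2 for Etv5-KO N16h. Both lines are compared with the same RGd2 libraries. With TMM scaling *Dnmt3l* (−1.32) and *Prdm14* in Rbpj-KO, and *Tet3* and *Prdm14* in Etv5-KO, were still called, and the other 3 were not.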

How the results depend on the processing

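Of 16 counts of called members, all 16 stayed within 1.5 times under DESeq2, total spike-in scaling, no low-count filter and no FPKM minimum. For 2i-p5 against 2i the count of 8 became 5 with TMM and with median-of-ratios on gene counts, and for the Etv5-KO difference of responses 4 became 2 with either. With only the compared libraries modelled, Rbpj-KO against RGd2 in 2i had 2 in place of 4. Leaving out 1 library gave 2 to 8 for the Etv5-KO difference of responses; the lone library left in Etv5-KO N16h was then assumed to vary like the others. The clonal line as a replicate block was fitted for 8 of the 16 comparisons. With it, log2 values of −0.40 (*Dnmt1*) and −0.34 (*Tet1*) for 2i-p5 against 2i, 0.46 (*Uhrf1*, Etv5-KO exit), 0.58 (*Uhrf1*, Etv5-KO difference of responses) and 0.72 (*Tet3*, Rbpj-KO difference) lost the call, −0.24 (*Uhrf1*, CH-p2) and 0.27 (*Tet2*, Rbpj-KO exit) gained it, and no other member call changed in these 8.

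Signs turned as follows, in log2 fold change. With RGd2 2i as baseline ER-dKO gave −0.13 (*Dnmt1*), −0.35 (*Uhrf1*), −0.16 (*Dnmt3a*) and −0.90 (*Tet2*), and ETR-tKO −0.17 (*Dnmt1*), −0.59 (*Uhrf1*) and −0.0087 (*Tet2*). The remaining ones were uncalled in the reported model. With TMM (then median-of-ratios) they were 0.0309 (0.0336) for *Dnmt1* and 0.11 (0.11) for *Uhrf1* in RGd2 N16h, −0.13 (−0.12) for *Dnmt1* in Rbpj-KO N16h, 0.13 (0.0893) for *Uhrf1* in Etv5-KO 2i, −0.14 (−0.14) for *Dnmt1* and −0.12 (−0.12) for *Tet1* in Etv5-KO N16h, −0.0771 (−0.0345) for *Dnmt1* in Etv5-KO exit and −0.0087 (−0.0512) for *Tet2* in ER-dKO. In Etv5-KO 2i TMM also gave 0.0124 for *Tet1* and 0.0018 for *Prdm14*. In the Rbpj-KO difference of responses they were −0.10 (−0.0724) for *Dnmt1*, −0.15 (−0.12) for *Uhrf1*, −0.13 (−0.11) for *Dnmt3a*, −0.15 (−0.13) for *Tet1* and −0.12 (−0.10) for *Tet2*. In that of Etv5-KO they were −0.11 (−0.0681) for *Dnmt1*, −0.23 (−0.20) for *Dnmt3a*, −0.44 (−0.40) for *Dnmt3l*, −0.14 (−0.10) for *Tet1* and −0.0573 (−0.0193) for *Tet2*. The cause was not tested.

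With 1 library left out, ranges that crossed 0 were −0.36 to 0.0117 (*Dnmt1*) and −0.24 to 0.0458 (*Uhrf1*) in RGd2 N16h, −0.24 to 0.13 (*Dnmt1*), −0.25 to 0.0412 (*Uhrf1*), −0.30 to 0.10 (*Tet1*) and −0.19 to 0.12 (*Tet3*) in Rbpj-KO 2i, −0.11 to 0.0137 (*Tet1*) in Rbpj-KO N16h and −0.22 to 0.07 (*Uhrf1*) in Etv5-KO 2i. In the Rbpj-KO difference they were −0.0914 to 0.28 (*Dnmt1*), −0.10 to 0.18 (*Uhrf1*), −0.12 to 0.23 (*Dnmt3a*), −0.15 to 0.25 (*Tet1*) and −0.0772 to 0.26 (*Tet2*), and in that of Etv5-KO −0.11 to 0.15 (*Dnmt3l*). The shallowest library is RGd2 2i replicate 33.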
